A study of Mus musculus with 10 samples.

Results

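The 32 mouse genes described here encode the 2 SREBP transcription factors, the 2 Insig proteins that hold them back, the enzymes that build cholesterol and fatty acids, and 1 sterol carrier. They were taken as a named list and not by a rule on measured values, though with earlier results of these data known. All 32 were present among the 46517 Ensembl genes of the count tables. Dermal endothelial cells had been sorted by FACS with Podoplanin and CD31 from mouse ear skin into 384-well plates, after cells with CD45, CD11b or Ter119 and dead cells were gated out, and each well was sequenced with Smart-Seq2, a method that reads full-length transcripts without molecular identifiers. The mutant group was 5 mice of the strain Pik3caH1047R;Cdh5-CreERT2 that carried Cre, in which topical 4-OHT on the ears at 3 wk of age activated a CreERT2 driven from the Cdh5 promoter and so switched on an activated catalytic subunit of PI3K in lymphatic and blood endothelium alike. The control group was 2 mice that differed from each other. Control 1 was an untreated C57BL/6J mouse, and control 2 was a Cre- mouse of the mutant strain that had received 4-OHT. All 7 mice were sampled at 5 wk of age, and a further Cre- mouse in the labels was not analysed here. The transgene has no entry of its own in the tables, so its expression could not be read. The comparison asked whether the activated kinase goes with a higher level of lipid synthesis transcripts in lymphatic endothelial cells (LECs), in LECs with abundant Ptx3, and in blood endothelial cells (BECs).

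A cell was called a LEC when Prox1, Flt4 and Mmrn1 together reached 300 CPM (read counts scaled to a common library total) and exceeded Flt1, Emcn and Podxl together, and a BEC when the latter sum was larger. The mutant mice gave 1283 LECs and 1215 BECs, and the control mice 358 and 327. Ptx3-high LECs, those with at least 100 CPM of Ptx3, numbered 62 to 162 in each mutant mouse but only 12 in control 1 and 44 in control 2. The reads of each class were added up per mouse, so that the mouse was the replicate, and the sums held 39610940 to 194353210 reads in LECs and BECs and 4098711 to 94444356 in Ptx3-high LECs. Both classes carried their defining markers, and Flt1 was at or under 17.4 CPM in the LECs of every mouse, although LECs also held Emcn at 299 to 505 CPM. Among markers of other skin cells, those of fibroblasts differed with genotype in both classes, whereas those of keratinocytes overlapped in BECs. Fibroblast markers summed to 570 to 769 CPM in control BECs against 12.8 to 53.8 in mutant BECs, and keratinocyte markers to 794 to 810 against 17.0 to 1243. In LECs fibroblast markers summed to 193 to 382 CPM in controls against 15.8 to 106 in mutants. Adipocyte markers stayed at or under 7.18 CPM, and sebocyte markers at 14.2 to 44.2 CPM, in the LECs and BECs of all mice. Cell cycle transcripts were higher in mutant cells, with 12.1% to 30.4% of mutant LECs and 0.546% to 2.29% of control LECs having reads of at least 3 of 7 cycling genes. Mutants 1 to 4 were on plates of a lower number series than mutant 5 and both controls, so genotype and plate series can be told apart only through mutant 5.

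Sterol regulatory element binding proteins are made as precursors in the endoplasmic reticulum, where Insig proteins keep them when sterols are plentiful. When sterols run low the precursors travel to the Golgi, are cleaved, and enter the nucleus, where the product of Srebf2 acts mainly on cholesterol genes and that of Srebf1 mainly on fatty acid genes. In liver, insulin acting through PI3K, AKT and mTORC1 is known to raise SREBP activity. Cleavage was not measured here, and the transcript levels of the factors do not give it.

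Across both genotypes, the levels of the members differed widely, on the scale of CPM per kilobase averaged over 7 mice. The length was the gene length supplied with the counts, which need not be that of the transcript present. In LECs the highest was Pmvk, the kinase that makes diphosphomevalonate, at 72.5 ± 16.6 (SD, n = 7), followed by Acly, which cleaves citrate to acetyl-CoA, at 57.8 ± 9.18. Ebp, a sterol isomerase, stood at 44.9 ± 7.27 and Scd2, a desaturase that makes monounsaturated fatty acids, at 33.8 ± 8.73. The ranges of these neighbours overlapped over the 7 mice. The lowest members were Lss, the cyclase that forms lanosterol, at 0.925 ± 0.616, and Acaca, the acetyl-CoA carboxylase, at 1.68 ± 0.449. This order depends on the lengths. By CPM alone Fads2 was lowest in LECs, at a mean of 5.97, and Acaca was at 28.6. In BECs the order began with Acly at 43.5 ± 11.5, Ebp at 38.5 ± 7.49 and Scd2 at 31.2 ± 11.8, and Pmvk had rank 5 at 17.8 ± 3.01. Lss was again lowest, at 0.807 ± 0.431.

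Promoter sequence was available in RefSeq (GRCm38.p6, 250 bases before to 50 bases after the start of transcription) for 25 members and not for Fdps, Fdft1, Sqle, Stard4, Scd1, Scd2 and Fads1. Both strands were searched for TCACNCCA, a core form of the sterol regulatory element, for CCAAT, the box bound by NF-Y, for CACGTG, an E box, and for GGGCGG, a GC box. TCACNCCA and CCAAT can overlap by the letters CCA. The sterol element core was found for 3 of the 25 members (12%), against 4.97% of all 27025 genes with a promoter entry. CCAAT was found for 21 members (84%) against 41.1% of all genes, GGGCGG also for 21 (84%) against 38.2%, and CACGTG for 4 (16%) against 8.09%. These are matches of letters, and no binding was measured. The windows below are shown because they hold all 3 sterol element cores found, and the CCAAT boxes of the same genes or of genes on which the results turn. They are on the strand of the gene with the match in capitals, where ATTGG is CCAAT on the other strand. Each start is that of a RefSeq entry, and for Srebf1 it lies inside the gene (chr11:60199089-60222581, minus strand).
Srebf2, chr15:82147096-82147125, plus strand, core 162 bases before the start: atgacgcaccaTCACCCCAtgagccgcttc
Srebf2, chr15:82147122-82147151, plus strand, box 135 bases before the start: cttcgcgcgccgATTGGctaatgcaagcct
Hmgcs1, chr13:119690203-119690232, plus strand, core 137 bases before the start: acgtcaccgtcTCACCCCActtcccaggtc
Msmo1, chr8:64733737-64733766, minus strand, core 177 bases before the start: tctcactattcTCACTCCAtccgcgcagcc
Hmgcs1, chr13:119690294-119690323, plus strand, box 45 bases before the start: tccccgcctctcATTGGctgaaagcggatc
Msmo1, chr8:64733616-64733645, minus strand, box 55 bases before the start: gagtggggcggaCCAATtacgacaggcgag
Pmvk, chr3:89454393-89454422, plus strand, box 136 bases before the start: aactcaggttggCCAATtcacagcatctag
Fasn, chr11:120824589-120824618, minus strand, box 59 bases before the start: cctcggtgtccaATTGGtttcgatgtggag
Srebf1, chr11:60210484-60210513, minus strand, box 30 bases before the start: gcgcggctgctgATTGGccatgtgcgctca

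Between mutant and control mice, the clearest differences were in the fatty acid branch of BECs, where Fasn and Scd2 were higher, and the cholesterol branch showed no called member in any of the 3 cell groups. In LECs none of the 32 members passed the threshold of 0.05 after Benjamini-Hochberg adjustment in edgeR's quasi-likelihood test, against a background of 1.96% of 19758 tested genes called higher and 0.805% called lower. At an unadjusted p under 0.05, 1 member was higher (Scd2) and 1 lower (Lss), where 20.1% of all genes passed in either direction. DESeq2 called the same 2 genes in the same directions, where it called 8.46% of genes higher and 4.85% lower. The log2 fold changes of the members had a median of 0.29, with 19 of 32 above 0, beside a median of -0.01 over all genes. With 5 mice against 2, an exact two-sided rank-sum test of a single gene cannot go below p = 0.0952.

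**Figure D1:**
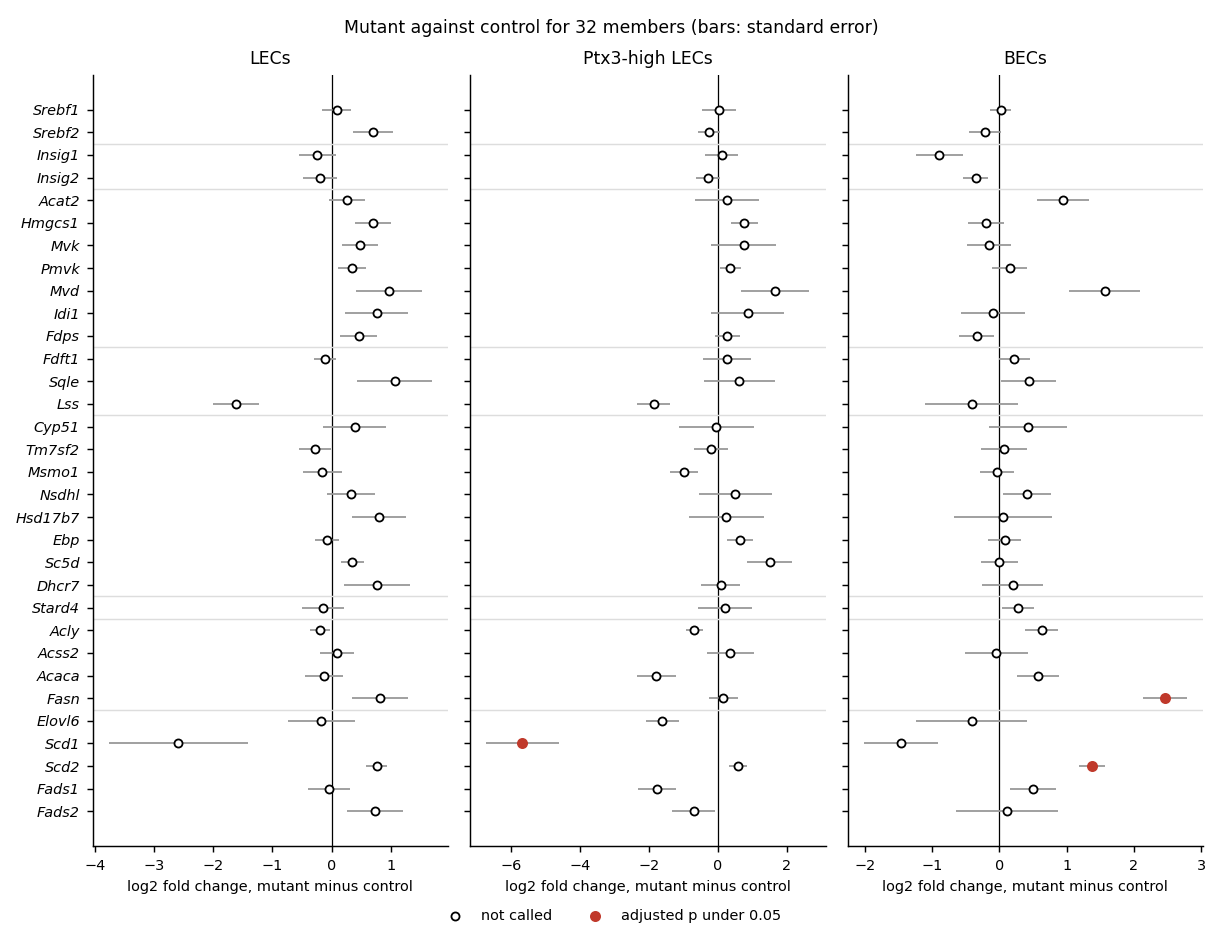
Log2 fold change of mutant over control (horizontal axis) with its standard error for the 32 members, ordered by role, in LECs, Ptx3-high LECs and BECs. Filled points passed an adjusted p of 0.05 in edgeR's quasi-likelihood test: Scd1 in Ptx3-high LECs (-5.67) and Fasn (2.46) and Scd2 (1.38) in BECs.

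Of the 2 transcription factors, Srebf1 was at 77.6 and 50.5 CPM in the LECs of controls 1 and 2 and at 59.2, 59.0, 69.6, 88.6 and 62.7 CPM in mutants 1 to 5, so that the groups overlapped. Srebf2 was at 32.0 and 81.0 CPM in the controls and at 83.3, 105, 77.8, 108 and 85.9 CPM in the mutants. Control 1 lay far below all other mice, while control 2 fell among the mutants. The fold change of Srebf2 was 0.70 on the log2 scale (SE 0.34, adjusted p = 0.284, edgeR). Insig1 and Insig2, which retain the SREBP precursors, had fold changes of -0.24 (SE 0.31) and -0.20 (SE 0.29), with overlapping groups.

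All 7 genes of the mevalonate arm, from Acat2 to Fdps, had fold changes above 0 in LECs, with a median of 0.48, and none passed the test. Hmgcs1, which forms HMG-CoA, was at 34.6 and 61.2 CPM in the controls and at 54.5, 82.9, 91.9, 95.3 and 63.7 CPM in the mutants. Only mutant 1 was below control 2. Its fold change was 0.70 (SE 0.31, adjusted p = 0.251, edgeR). The other members of the arm ranged from 0.26 for Acat2, an acetyl-CoA thiolase, to 0.97 for Mvd, the decarboxylase that forms isopentenyl diphosphate. Pmvk was at 92.8 and 116 CPM in the controls and at 123, 118, 127, 106 and 186 CPM in the mutants, which put mutant 4 between the controls.

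Of the enzymes from squalene to cholesterol, Sqle, the epoxidase that commits squalene to sterols, was at 4.73 and 30.5 CPM in control LECs and at 22.3, 36.0, 47.9, 43.9 and 34.2 CPM in mutant LECs. Control 1 was again far below the rest and control 2 inside the mutant range. Lss was at 20.4 and 17.9 CPM in the controls and at 5.63, 3.53, 6.87, 9.41 and 5.84 CPM in the mutants, with no overlap. It fell short of the threshold at -1.61 on the log2 scale (SE 0.39, adjusted p = 0.0671, edgeR). Between 13.6% and 52.1% of a mouse's Lss reads came from a single cell, so these sums rest on few cells. Dhcr7, which makes cholesterol from its last precursor, was at 6.72 CPM in control 1, 39.0 CPM in control 2 and 33.1 to 44.1 CPM in the mutants. Sc5d, a sterol desaturase, was at 33.6 and 34.9 CPM in the controls and at 37.3 to 48.8 CPM in the mutants, without overlap, and its fold change of 0.35 (SE 0.19) did not pass the test.

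Control 1 thus stood apart from control 2 in the sterol genes of LECs. It was the lowest of 7 mice for 18 of the 32 members (56.2%), whereas 23.3% of all tested genes were lowest in that mouse. Control 2 was lowest for 1 member, against 20.6% of all genes. Of the 18 sterol synthesis members, 16 were lower in control 1 than in control 2 in LECs, with a median log2 difference of -0.67, whereas in BECs 9 of 18 were lower, with a median of 0.03. In BECs control 1 was the lowest mouse for 7 of 32 members, close to the 21% seen over all genes. Leaving control 2 out of the LEC comparison left 1 control. The fold changes of Dhcr7, Sqle and Srebf2 were then 2.53, 2.97 and 1.53. Without control 1 those of the same 3 genes were 0.02, 0.30 and 0.21. The median of the 32 members was 0.52 without control 2, beside 0.15 over all genes. It was 0.11 without control 1, beside 0.12 over all genes. The controls differ in the strain given by the labels, in 4-OHT and in mouse at once, and these cannot be told apart.

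**Figure D2:**
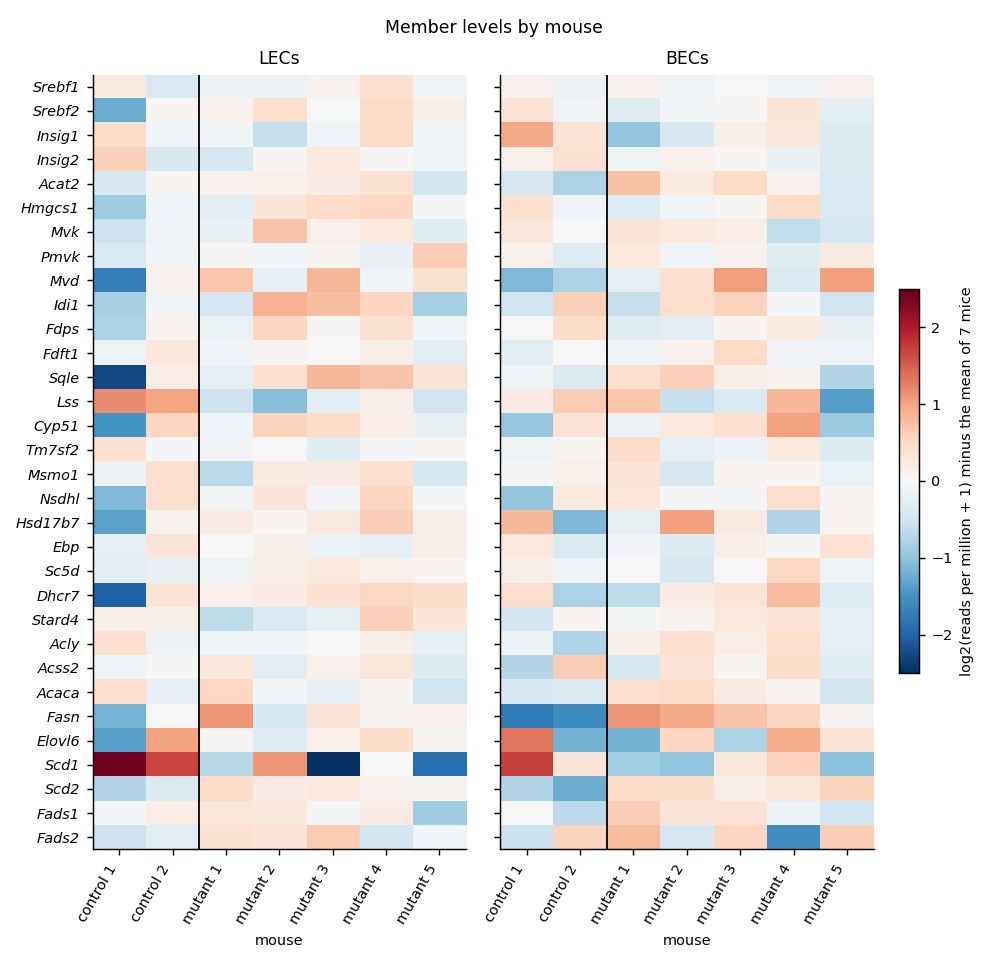
Level of each member in each mouse, as log2 of CPM + 1 minus its mean over 7 mice, in LECs and BECs (red higher, blue lower; colours saturate at 2.5 in either direction). In LECs the column of control 1 is blue for most sterol genes and that of control 2 is not, while in BECs Fasn is blue in both controls and in no mutant.

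In the fatty acid branch of LECs, Acly, Acss2 and Acaca had fold changes between -0.20 and 0.09. Fasn, the fatty acid synthase, was at 12.8 and 29.7 CPM in the controls and at 64.0, 21.7, 38.0, 31.3 and 32.5 CPM in the mutants, with mutant 2 inside the control range. Its fold change was 0.82 (SE 0.47, adjusted p = 0.365, edgeR). Scd2 was at 106 and 139 CPM in the controls and at 248, 205, 213, 189 and 186 CPM in the mutants. The groups did not overlap, and the fold change of 0.76 (SE 0.18) missed the threshold with an adjusted p of 0.0604 in edgeR. Scd1, its paralog, was at 37.7 and 22.1 CPM in the controls and at 3.39, 14.3, 0.137, 6.15 and 0.924 CPM in the mutants. The groups again did not overlap, the fold change was -2.59 (SE 1.18, adjusted p = 0.265, edgeR), and 74.8% and 97.1% of the control reads came from cells with markers of other cell types. In all, 2 members were higher in every mutant than in both controls (Sc5d and Scd2) and 2 lower (Lss and Scd1), against 13.8% and 11.7% of all genes.

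In Ptx3-high LECs, 1 of the 32 members was called lower and none higher, where 2.21% of 16756 tested genes were called lower and 2.82% higher by edgeR. Scd1 was at 22.04 and 57.6 CPM in the controls and at 0.240, 0.257, 0.109, 1.70 and 1.53 CPM in the mutants. The groups were far apart, at -5.67 on the log2 scale (SE 1.05, adjusted p = 0.0230, edgeR's quasi-likelihood test). However, 95.2% of the Scd1 reads of control 1 and 99.2% of those of control 2 came from a single cell each. Cells with contaminant markers supplied 95.2% and 99.5% of the control reads. Without such cells the fold change was -0.66 (adjusted p = 0.774, edgeR), and among LECs with at least 200 CPM of Ptx3 it was 0.11 (adjusted p = 0.971, edgeR). The call was also lost without mutant 1 (adjusted p = 0.0560) or mutant 2 (adjusted p = 0.0572). Lss was at 26.3 and 28.3 CPM in the controls and at 10.3, 6.13, 6.44, 6.91 and 7.74 CPM in the mutants, without overlap, and 99.0% and 66.3% of the control reads came from 1 cell each. Its fold change was -1.86 (SE 0.47, adjusted p = 0.0580, edgeR).

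**Figure D3:**
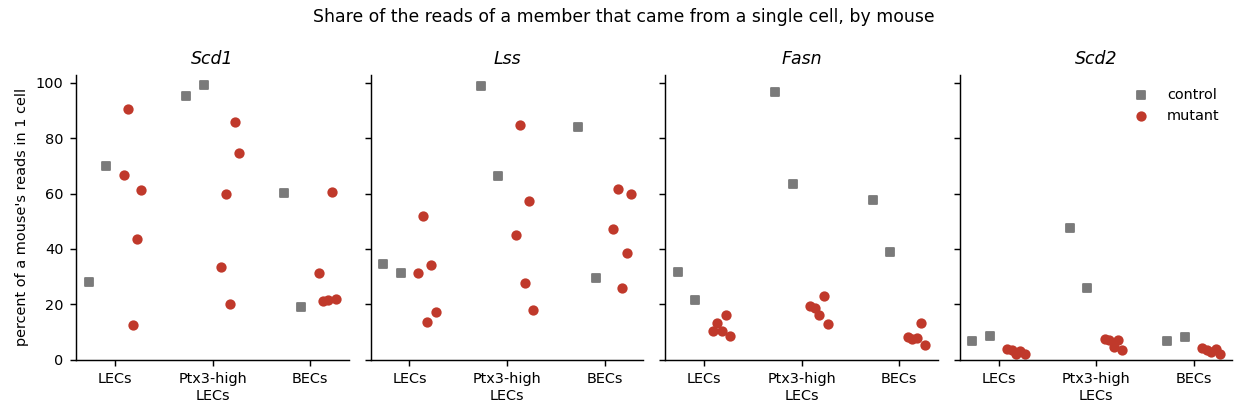
Percentage of a mouse's reads of Scd1, Lss, Fasn and Scd2 (vertical axis) that came from the cell with the most reads, by cell group and genotype; each point is a mouse. In Ptx3-high LECs of the controls a single cell held 95.2% and 99.2% of the Scd1 reads, whereas for Scd2 in BECs the share stayed at or under 8.1% in all mice.

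Counting Scd1 and Lss, 7 members were lower and 1 higher in Ptx3-high LECs at an unadjusted p under 0.05. Over all genes 23.9% passed this threshold in either direction, so the 8 of 32 were close to the background. The others lower were Acaca at -1.79 (SE 0.57), Elovl6, which extends palmitate, at -1.62 (SE 0.48), Fads1, a desaturase of polyunsaturated fatty acids, at -1.77 (SE 0.56), Acly at -0.68 (SE 0.24) and Msmo1, which removes methyl groups from lanosterol derivatives, at -0.98 (SE 0.42). The higher gene was Sc5d at 1.501 (SE 0.66). Of the 32 members, 1 was higher in all mutants than in both controls and 6 were lower, where 16.9% and 12.2% of all genes did so. The median fold change was 0.18 (0.06 over all genes). It was -0.45 without control 1, whose sum held 12 cells, when the median of all genes was 0.21. Without control 2 it was 1.28, when the median of all genes was itself 0.69. The level of Sqle, 0.797 CPM in control 1 and 63.6 CPM in control 2, shows how far these controls lay apart. The mutants were at 41.4, 67.1, 62.7, 48.7 and 31.8 CPM.

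In BECs, 2 of the 32 members were called higher and none lower, where 1.36% of 19478 tested genes were called higher and 0.508% lower. Fasn was at 13.6 and 15.7 CPM in the controls and at 106, 94.5, 80.6, 71.7 and 50.5 CPM in the mutants. Every mutant was far above both controls, with means of 80.7 ± 21.4 (SD, n = 5) and 14.7 ± 1.54 CPM (SD, n = 2), and the log2 fold change was 2.46 (SE 0.32, adjusted p = 0.0125, edgeR's quasi-likelihood test). Scd2 was at 92.8 and 66.3 CPM in the controls and at 217, 215, 175, 193 and 231 CPM in the mutants. The groups did not overlap, and the fold change was 1.38 (SE 0.20, adjusted p = 0.0160, edgeR).

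More BECs had reads of these genes. After each cell was thinned to 50000 reads, Fasn was detected in 8.0% and 6.7% of control BECs and in 41.2%, 28.8%, 26.5%, 20.9% and 21.8% of mutant BECs. Without thinning the shares were 21.5% and 14.6% against 32.6% to 62.0%. Scd2 was detected after thinning in 41.1% and 23.8% of control BECs and in 52.4% to 76.0% of mutant BECs. Both genes were thus found in a larger share of cells in every mutant than in either control. Of the Fasn reads of controls 1 and 2, 93.0% and 29.8% came from BECs with contaminant markers, against 0.0% to 25.2% in the mutants. Without those cells the fold change of Fasn was 3.13 (adjusted p = 0.0527, edgeR) and that of Scd2 was 1.41 (adjusted p = 0.0208). The other doubt is the plates. With plate series as a block the fold changes were 1.78 for Fasn (adjusted p = 0.0800) and 1.54 for Scd2 (adjusted p = 0.0788), and mutant 5 alone, which shares the series of the controls, gave 1.80 and 1.55 (edgeR). Leaving out either control ended the call of Fasn (adjusted p = 0.0628 without control 1 and 0.0613 without control 2, edgeR), and leaving out control 2 that of Scd2 (adjusted p = 0.0653).

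**Figure D4:**
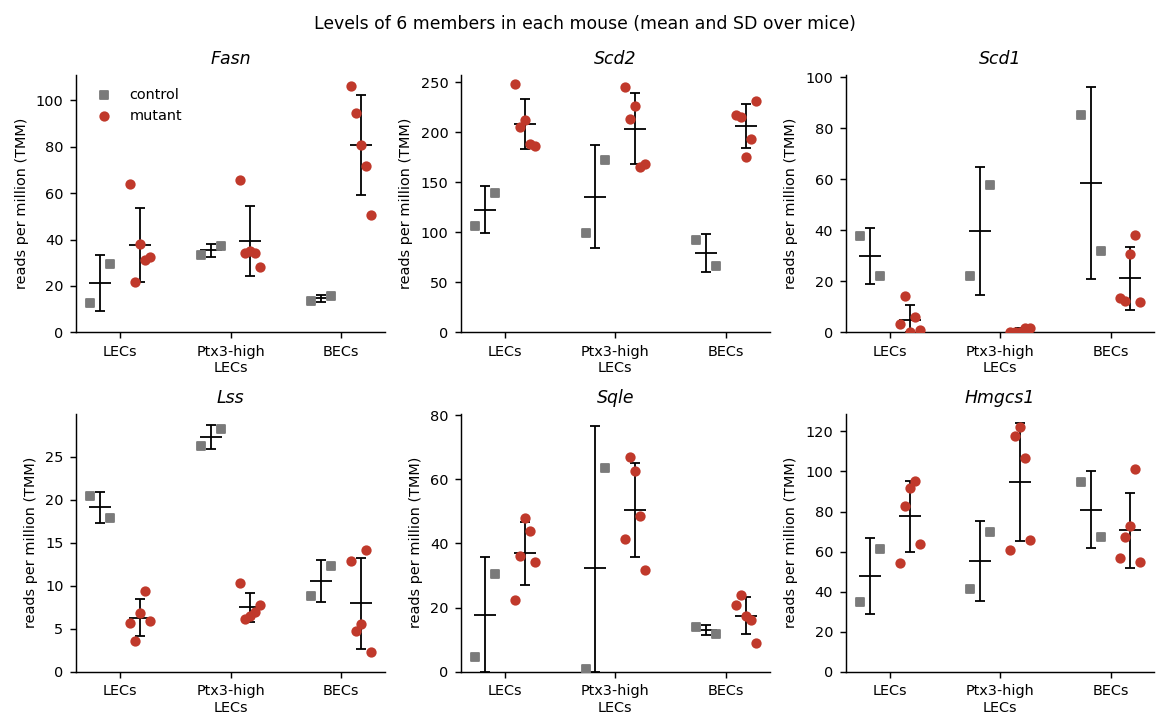
CPM after TMM normalization (vertical axis) of 6 members in LECs, Ptx3-high LECs and BECs; each point is a mouse, and bars show the mean and SD over mice, cut at 0. Fasn in BECs was at 13.6 to 15.7 CPM in controls and 50.5 to 106 CPM in mutants, whereas Sqle and Hmgcs1 in BECs overlapped between genotypes.

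The remaining fatty acid genes of BECs did not pass the test. Acly was at 201 and 129.6 CPM in the controls and at 245, 291, 251, 301 and 188 CPM in the mutants, with mutant 5 below control 1, and its fold change was 0.62 (SE 0.24, adjusted p = 0.212, edgeR). Acaca was at 0.57 (SE 0.31). Scd1 had the opposite sign, at 85.2 and 31.8 CPM in the controls and 11.8 to 38.0 CPM in the mutants, with a fold change of -1.46 (SE 0.55, adjusted p = 0.208, edgeR) and overlapping groups. Cells with contaminant markers held 95.3% and 68.6% of the control Scd1 reads. Scd1 and Scd2 are neighbours on chromosome 19 (Scd2 at chr19:44293674-44306864, Scd1 at chr19:44394455-44407879, GRCm38) and similar in sequence, and whether reads were shared between them was not tested.

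The sterol genes of BECs showed no called change. The fold changes of the mevalonate arm had a median of -0.10, with 3 of 7 above 0. Mvd was at 5.96 and 7.67 CPM in the controls and at 11.9, 19.2, 29.9, 10.5 and 29.3 CPM in the mutants, without overlap, and reached 1.56 (SE 0.53, adjusted p = 0.170, edgeR), while DESeq2 called it (adjusted p = 0.0217), as it did 8.05% of all genes in the higher direction. Acat2, which feeds acetoacetyl-CoA into the arm, was also higher in every mutant, at 0.94 (SE 0.39, adjusted p = 0.239, edgeR). Hmgcs1 was at -0.20 (SE 0.27), Sqle at 0.43 (SE 0.41) and Srebf2 at -0.22 (SE 0.24), all with overlapping groups. Insig1 and Insig2 were lower in every mutant than in both controls, at -0.89 (SE 0.35, adjusted p = 0.216) and -0.35 (SE 0.19, adjusted p = 0.338) by edgeR. In all, 4 members did not overlap in the higher direction and 2 in the lower, where 13.6% and 11.4% of all genes did so. The median fold change of the 32 members was 0.07, against 0.01 for all genes, with 19 above 0.

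The difference of the mutant effect between LECs and BECs was tested as an interaction, with mouse as a block. None of the 32 members was called by edgeR, where 0.0227% of 22000 tested genes were called with a larger effect in LECs and 0.159% with a smaller one. At an unadjusted p under 0.05, 2 members had a larger effect in LECs and 3 a smaller one, where 11.3% of all genes passed in either direction. Acly had a difference of -0.84 (SE 0.15, adjusted p = 0.101) and Fasn of -1.59 (SE 0.45, adjusted p = 0.237), and these were the 2 that DESeq2 called, where it called 4.19% of all genes with a smaller effect in LECs. Scd2 stood at -0.65 (adjusted p = 0.413), Hmgcs1 at 0.91 (adjusted p = 0.386) and Fdps, the synthase of farnesyl diphosphate, at 0.81 (adjusted p = 0.394) in edgeR. All 4 genes of fatty acid synthesis had differences below 0, and 5 of the 7 genes of the mevalonate arm above 0. Fasn was thus called in BECs and not in LECs, while the test of the difference between the cell types did not pass.

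LECs and BECs of the same mice differed in 6 members. Pmvk was at 93.4, 118, 124, 120.0, 127, 104 and 183 CPM in the LECs of controls 1 and 2 and mutants 1 to 5, and at 32.7, 23.9, 36.9, 27.9, 32.9, 24.4 and 35.1 CPM in their BECs. LECs were higher in 7 of 7 mice, by 2.01 on the log2 scale (SE 0.12, adjusted p = 6.63e-06, edgeR). Fdft1, which makes squalene, was higher in LECs by 0.48 (adjusted p = 0.0146) and Msmo1 by 0.65 (adjusted p = 0.0367), each in 6 of 7 mice. The 3 members that were lower in LECs were so in every mouse. Srebf1 was at 51.1 to 87.7 CPM in LECs and 89.7 to 107 CPM in BECs, a difference of -0.58 (SE 0.11, adjusted p = 0.00340, edgeR). Stard4, which carries cholesterol between membranes, was at -1.07 (SE 0.18, adjusted p = 0.00227), and Fads1 at -1.06 (SE 0.18, adjusted p = 0.00222). Over all 17657 genes tested, 14.3% were called higher in LECs and 12.2% lower, so the 3 of 32 in either direction were a smaller share than the background. Without control 1, 5 members were called higher. Srebf2 had the opposite sign to Srebf1, at 0.72 (SE 0.25, adjusted p = 0.0618, edgeR).

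**Figure D5:**
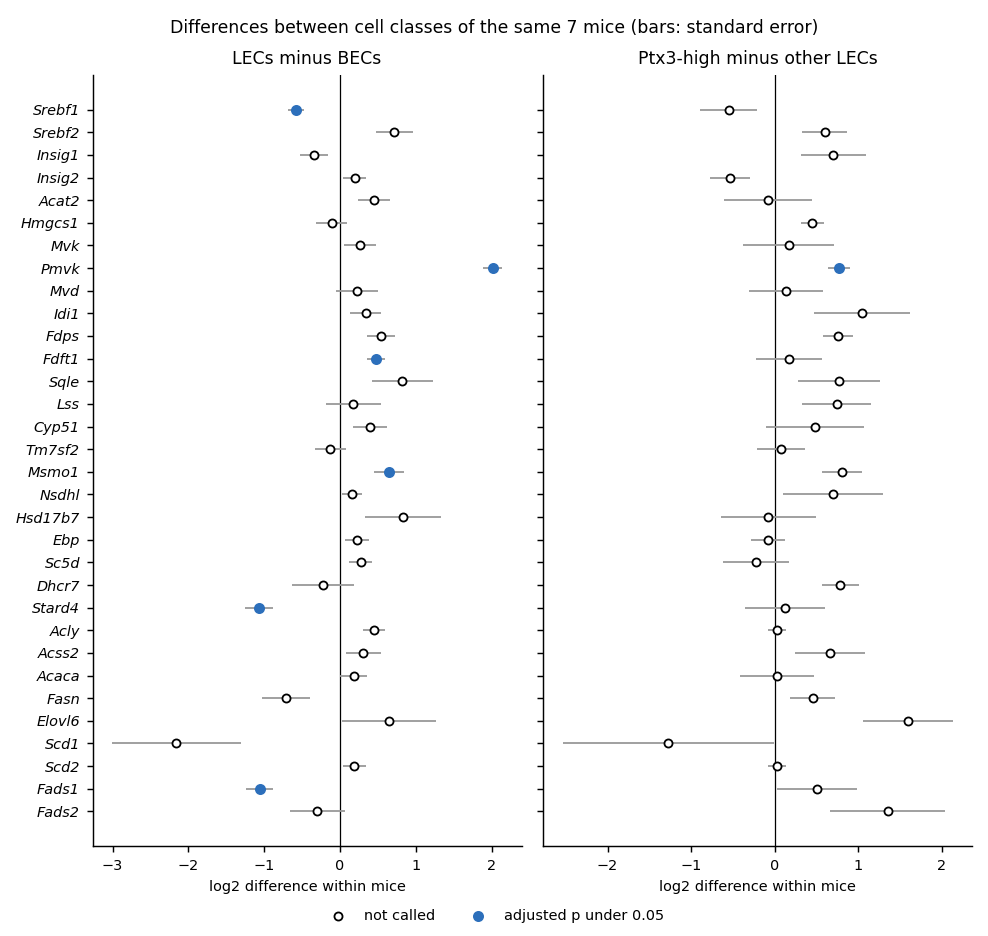
Log2 difference between cell classes of the same 7 mice (horizontal axis) with its standard error for the 32 members, for LECs minus BECs and for Ptx3-high minus other LECs. Filled points passed an adjusted p of 0.05 in edgeR's quasi-likelihood test; Pmvk is at 2.01 and 0.77.

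Within LECs, Ptx3-high cells were compared with the other LECs of the same mouse. Pmvk was at 121, 161, 176, 164, 193, 114 and 247 CPM in the Ptx3-high cells of controls 1 and 2 and mutants 1 to 5, and at 92.0, 102.98, 93.1, 95.8, 82.1, 93.0 and 115 CPM in the other LECs. It was higher in 7 of 7 mice, by 0.77 (SE 0.13, adjusted p = 0.0174, edgeR), and was the only member called, where 1.16% of 15750 genes were called higher and 1.57% lower. Leaving out mutant 1, 2, 3 or 5 ended this call (adjusted p = 0.0501 to 0.0676), and 5 members were called without control 1. Fdps at 0.76 (adjusted p = 0.0595), Hmgcs1 at 0.45 (adjusted p = 0.142) and Dhcr7 at 0.79 (adjusted p = 0.105) were also higher in all 7 mice without passing the test. The differences of 25 of 32 members were above 0, with a median of 0.45, beside -0.08 over all genes. Cell numbers were also made equal between mice within each class, at 12 Ptx3-high and 106 other LECs a mouse. The classes themselves remained unequal. In that setting 16 of 32 were above 0, the median was -0.02 and Pmvk was at 0.44 (adjusted p = 0.344, edgeR). Cycling transcripts were higher in Ptx3-high cells for 7 of 7 cycling genes, and without cycling cells Pmvk was at 0.87 (adjusted p = 0.0235, edgeR).

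Genes that act around the pathway were taken from lists of the pathway. Of 9 genes of the LXR and oxysterol list, 2 were higher in mutant BECs, and Abca1, the cholesterol exporter, was lower in mutant Ptx3-high LECs at -1.999 (adjusted p = 0.0259). Ch25h, which makes an oxysterol that holds SREBPs in the endoplasmic reticulum, averaged 177 CPM in mutant and 29.0 CPM in control BECs, a rise of 2.61 (adjusted p = 0.00508). Its mutant effect was smaller in LECs than in BECs by the interaction test, with a difference of -2.09 (adjusted p = 0.0157). Lpcat3, a phospholipid acyltransferase, rose in BECs by 0.86 (adjusted p = 0.0397). Of 12 genes of sterol uptake, storage and transfer, Lipa, the lysosomal lipase, rose in BECs by 1.31 (adjusted p = 0.0122) and none was called in LECs. In Ptx3-high LECs of this list, Lrp8 was called higher, at a mean of 8.19 CPM in mutants and no read in controls. No gene of 10 in the isoprenoid branch was called in the 3 comparisons of genotype. Of 20 genes of fatty acid elongation, activation and glycerolipids, 2 fell in LECs, Dgat2, which makes triglyceride, by 1.66 (adjusted p = 0.0355) and Elovl5, a fatty acid elongase, by 0.70 (adjusted p = 0.0498), and none was called in BECs or Ptx3-high LECs. All adjusted p-values here are from edgeR's quasi-likelihood test. Over all genes, 0.805% were called lower in LECs and 1.36% higher in BECs. In Ptx3-high LECs 2.21% were called lower and 2.82% higher, and 0.159% had a smaller effect in LECs by the interaction test. Unlike those of the members, the calls of these lists were not checked without cells with contaminant markers, with plate series as a block or with a mouse left out.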

How the data were processed

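Each deposited table held the raw read counts that the authors assigned to Ensembl genes in the 384 wells of a plate. Per the labels, the submitters' processing notes name TopHat2 2.1.1, SAMtools 0.1.18, Subread featureCounts, R 3.5.1, Seurat 3.1.1 and the genome build GRCm38, and strand-specific counting is not given in the sources used here. The 9 tables hold 46517 genes, of which 46005 (98.9%) matched a symbol, and spike-ins (0.447% of reads) were left out. The protein-coding positions come from GENCODE release 21 for mouse.

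Wells with at least 50000 reads, 200 genes and at most 10% mitochondrial reads were kept, 2524 of 2688 in mutants and 724 of 768 in controls, with medians of 300448 and 286372 reads. No doublet caller was run, and cells scoring for both classes were left out in an alternative. A cell had contaminant markers when any marker list of another cell type (keratinocyte, fibroblast, mural, immune, adipocyte, sebocyte or Schwann cell) summed to 300 CPM, which held for 165 mutant and 94 control LECs and 199 mutant and 143 control BECs. 26 mutant and 39 control wells fell in no class. Counts were summed over the cells of a class in each mouse, both plates of a mouse together.

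Sums were tested with edgeR 4.0.16 (filterByExpr, TMM, glmQLFit, glmQLFTest) in R 4.3.3, with Benjamini-Hochberg adjustment over all tested genes and calls under 0.05. CPM is the TMM-normalized value. All 32 members passed the filter in all comparisons. The script was tested on simulated data. Of simulated 2-fold changes between genotypes it called 4.08% in LECs, 0% in Ptx3-high LECs and 2.11% in BECs. Of 4-fold changes it called 40.2%, 10.1% and 30.1%. A member that was not called between genotypes may therefore still differ. DESeq2 1.42.0, other normalization, filters, cell subsets, left-out mice and blocks were alternatives. The named genes were all 32 members and, from other pathway lists, those called, at most 4 in a direction. The members and lists were chosen with earlier results of these data known. Reads are not molecules, and nothing says how far the mice differ in litter, so p-values measure the spread between these mice. A summed level does not tell fewer cells with a transcript from less of it per cell. A further list, of SREBP processing and sterol feedback genes, was tested in all comparisons and had calls among them, and it is not reported here.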

Additional observations from a re-analysis of the deposited data

Results flagged for a closer look

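Among the 32 members, the 5 mutant mice were checked for a mouse far from the others in each of LECs, Ptx3-high LECs and BECs, 96 checks in all, of which chance flags about 1 in 20. In 2 of them a single mutant stood apart. Pmvk in LECs reached 186.38 CPM in mutant 5, with the other mutants at 105.6 to 126.7 CPM, and this gap was 0.739 of the whole range, above Dixon's critical value of 0.71 for 5 samples. Mutant 5 is the only mutant on plates of the same number series as the controls, whose Pmvk levels were 92.8 and 116 CPM. Fasn in Ptx3-high LECs reached 65.55 CPM in mutant 1, with the others at 28.0 to 34.9 CPM and a gap of 0.817 of the range. In all LECs the same mouse was also the highest, at 64.0 CPM.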

How the results depend on the processing

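The number of members called was small in every comparison, and it moved with the processing. In LECs, where none was called, DESeq2 called 1 higher and 1 lower, and 1 was called higher after thinning to 50000 reads or without the 300 CPM limit. Leaving out a mutant gave 0 higher and 0 lower. In Ptx3-high LECs, with 1 called lower, the number was 5 with DESeq2 and 2 after thinning. It was 0 without cycling cells, with equal cell numbers, without cells with contaminant markers, with plate series as a block, with mutant 5 alone and at 200 CPM of Ptx3. Leaving out a mouse gave 0 to 4 lower and 0 to 16 higher there (16 higher and 4 lower without control 2). That last setting left 1 control, and fold changes shifted upward over all genes and not only in the members. The median of all genes was 0.69 without control 2, against 0.06 with both controls. That of the members was 1.28, against 0.18. The call of Scd1 was also lost without mutant 1 or mutant 2. In BECs, with 2 called higher, 1 remained without cells with contaminant markers and 0 with plate series as a block or with mutant 5 alone, and leaving out a mouse gave 0 to 2. Between LECs and BECs, with 3 called in either direction, DESeq2 called 6 higher and 5 lower, 5 were higher without cells with contaminant markers or without the 300 CPM limit, 6 without cells scoring for both classes, and 5 were lower after thinning. The controls alone gave 1 higher and 0 lower, and leaving out a mouse gave 2 to 5 and 3 to 4. For the difference of the mutant effect DESeq2 called 2 lower, and leaving out a mouse gave 0 to 0. Between Ptx3-high and other LECs, with 1 called higher, DESeq2 called 6, and 2 were higher without cycling cells, after thinning or without cells with contaminant markers. The mutants alone gave 4 higher and 1 lower, and equal cell numbers or the controls alone gave 0. Leaving out a mouse gave 0 to 5 higher and 0 to 1 lower. Over all genes DESeq2 called 2.59% to 18.1% in a direction in these comparisons. The cause of these shifts was not tested.

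With the replicate number as a block (replicate block), 0 members were called in Ptx3-high LECs and 0 in BECs, where Fasn was at 2.78 (adjusted p = 0.132) and Scd2 at 1.46 (adjusted p = 0.199) in edgeR. Over all genes the block left 3 calls in LECs and 0 in BECs. Mutants 3 to 5 had no control of the same number, so only mutants 1 and 2 and the controls set these fold changes. The deviations of same-numbered mice correlated at -0.0468 and 0.0266 in LECs and 0.00911 and 0.0777 in BECs. With 2 controls, their deviations from the control mean mirror each other. These values therefore cannot show whether same-numbered mice share a litter or batch. Among 3967 values of single members, 3843 stayed on their side of the threshold (314 of these, not called, changed sign), 81 became called and 41 lost a call. The remaining 2 reversed: Cyp51 in Ptx3-high LECs was 5.99 without control 2 and -0.99 without control 1, and Scd1 there was 0.11 at 200 CPM of Ptx3. The median fold change of the members ranged from -0.02 to 0.52 in LECs, from -0.45 to 1.28 in Ptx3-high LECs and from -0.20 to 0.31 in BECs, crossing 0 in each. Between LECs and BECs it stayed between 0.16 and 0.26. The Ptx3-high sum of control 1 held 12 cells and 4098711 reads, so its levels are the least deeply counted of the sums compared between genotypes.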

Other observations

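LECs and BECs of the same mice also differed in genes of sterol transport. Of 12 genes of sterol uptake, storage and transfer, 3 were higher in LECs and 4 lower by edgeR's quasi-likelihood test, where 14.3% of all genes were called higher and 12.2% lower. Scarb1, the receptor that takes cholesteryl ester from high-density lipoprotein, was lower in LECs by 5.30 on the log2 scale, and Stard3, a sterol carrier of late endosomes, by 1.13. Lipa and Npc2, which release and hand over cholesterol in lysosomes, were at -0.87 (adjusted p = 0.000955) and -0.41 (adjusted p = 0.0486). The higher genes were Gramd1a at 1.23 and Gramd1b at 1.89, which move cholesterol from the plasma membrane to the endoplasmic reticulum, and Lrp8, a lipoprotein receptor, at 2.27. Of the 9 genes of the LXR list, Nr1h3, which encodes an oxysterol receptor, was higher in LECs at 1.399, and Cyp7b1, an oxysterol hydroxylase, at -6.86, Mylip, a ligase that marks lipoprotein receptors for degradation, at -1.97, Lpcat3 at -0.49 and Nr1h2 at -0.32 were lower. Of 10 isoprenoid genes, Pdss2 was higher at 1.18 and Nus1 lower at -1.11.

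Of the 20 genes of fatty acid elongation, activation and glycerolipids, 6 were higher in LECs than in BECs and 4 lower, against the same shares of all genes. Tecr, an enzyme of fatty acid elongation, was at 0.70, Me1, malic enzyme, at 1.86, Acsl1, an acyl-CoA synthetase, at 1.19, and Elovl7, an elongase, at 2.59. The lower genes were Hacd2 at -1.07, Acsl4 at -1.18, Acacb at -1.89 and Elovl5 at -0.61. Between Ptx3-high and other LECs, Nr1h3 was lower at -3.94 (adjusted p = 0.00553) and Ch25h higher at 0.81 (adjusted p = 0.0157), both by edgeR.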
